A study of Homo sapiens with 11 samples.

Results

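Long noncoding RNAs are transcripts that act as RNA rather than through a protein. The 10 described here were listed by name because they are among the most studied: MALAT1, NEAT1, SNHG1, GAS5, DANCR, TUG1, PVT1, HOTAIR, MIR22HG and MIR17HG. They were 10 of 58243 genes in the RNA-seq data, of which 14154 were annotated long noncoding genes. HK2 is an immortalised human proximal tubule epithelial line, and all samples came from it under 1 condition, in medium with FBS, antibiotics and a low concentration of DMSO. RNA-seq of rRNA-depleted total RNA gave 2 libraries, and ChIP-seq gave 2 peak lists for each of the histone marks H3K4me3, H3K27ac and H3K27me3. Nothing in the labels says that these came from separate cultures, so the spread between them may be technical, and with 1 condition no test between groups was possible. Input DNA and HiChIP were not analysed here.

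The RNA-seq libraries held 5.67 and 5.52 Gb of aligned bases over annotated transcripts. The replicates of a mark differed in number and width of peaks, for H3K4me3 with 29130 and 73942 peaks of median width 1194 and 434 bp, so a feature was called only where both had a peak. As a check of the cell type, FPKM (fragments counted per length of transcript and per depth of library) reached 1 in both libraries for 2 of 10 proximal tubule markers, GGT1 and SLC5A2, while LRP2, HNF4A and SLC22A6 were listed at 0. It did so for 6 of 8 epithelial markers, with KRT8 at 179 and 184, PAX8 at 100.2 and 104 and CDH2 at 59.3 and 59.7. The epithelial markers that did not reach 1 were CDH1, at 0.210 and 0.283, and PAX2, at 0.372 and 0.400. An FPKM of 1 was also reached by 1 of 4 podocyte markers (PODXL), 0 of 3 endothelial, 1 of 3 fibroblast (COL1A1, at 40.3 and 39.9) and 1 of 2 leukocyte markers (CD68). The cells thus carried most of the listed epithelial RNAs, but not CDH1 or PAX2 at this level. They lacked most listed markers of the proximal tubule, the origin given for the line.

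The 10 RNAs do different things. MALAT1 and NEAT1 stay in the nucleus, where MALAT1 is found in speckles rich in splicing factors and NEAT1 is the scaffold of paraspeckles. SNHG1, GAS5 and DANCR carry small nucleolar RNAs (snoRNAs) in their introns, and MIR22HG and MIR17HG are the primary transcripts from which microRNAs (miRNAs) are cut. PVT1 and TUG1 are spliced RNAs that are also studied for what their loci do, and HOTAIR is transcribed from the HOXC cluster of developmental genes. H3K4me3 marks promoters, H3K27ac active promoters and enhancers, and H3K27me3 chromatin repressed by Polycomb proteins.

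Of the 10 RNAs, 8 reached an FPKM of 1 in both libraries, against 4.85% of the 14154 long noncoding genes and 58.8% of the 19644 protein-coding genes. At their promoters, taken as 1 kb on either side of any annotated transcription start site (TSS), all 10 had H3K4me3 peaks of both replicates, against 23.5% of long noncoding and 70.0% of protein-coding genes. For H3K27ac the count was 9 of 10, against 21.8% and 55.0%. Both marks lay at the same TSS in those 9, against 16.8% of long noncoding and 52.5% of protein-coding genes. HOTAIR was the exception. It alone had H3K27me3 peaks of both replicates, a pattern found in 6.10% of long noncoding and 11.2% of protein-coding genes. At 1 of its TSS positions H3K4me3 of both replicates also lay within 1 kb, as in 2.25% and 6.38% of these genes. The RNAs were chosen because they are well known, and with earlier results of these data known. These shares therefore describe the list and not long noncoding RNAs in general. A gene with more annotated starts also has more windows, and the members had from 6 (HOTAIR) to 132 (PVT1). The shares over all genes were not matched for the number of starts.

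**Figure D1:**
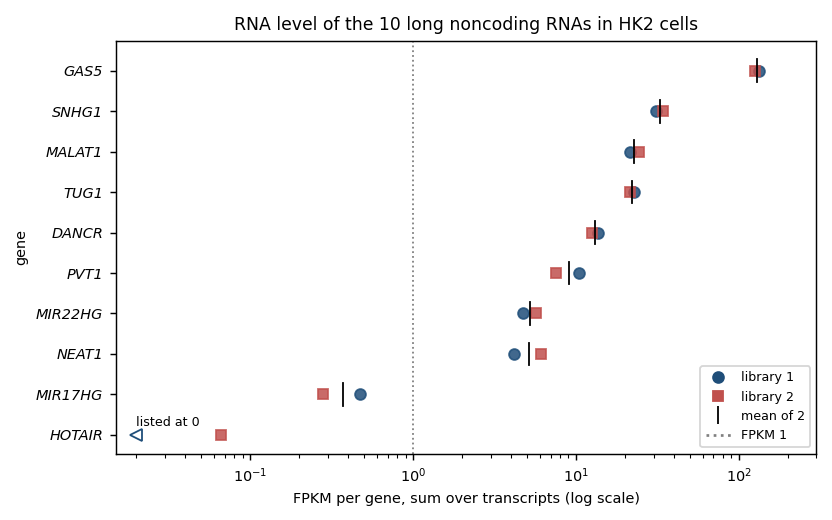
FPKM of each gene, summed over its transcripts, on a log axis. Circles and squares are libraries 1 and 2, black ticks their mean where both are above 0, and the dotted line an FPKM of 1. GAS5 lies highest at 134 and 127, 8 genes lie to the right of the line, and HOTAIR was listed at 0 in library 1 (open triangle, drawn at the left edge).

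The levels spanned more than 3 orders of magnitude, and of 9 neighbouring pairs in their order only 2, MALAT1 with TUG1 and MIR22HG with NEAT1, had overlapping ranges between libraries. The snoRNA hosts GAS5 and SNHG1 came first and second, and the miRNA host MIR17HG and HOTAIR came last. By mean FPKM, GAS5 ranked 3, SNHG1 12, MALAT1 17, TUG1 18, DANCR 38 and PVT1 70 among 14154 long noncoding genes. MIR22HG ranked 151, NEAT1 156, MIR17HG 1696 and HOTAIR 4694. Over 13466 genes whose mean FPKM was 1 or more, the SD of the log2 difference between libraries was 0.29 (pseudocount 1). NEAT1 differed by 0.46, more than 92.9% of those genes, and PVT1 by -0.43, more than 91.8% of them. The remaining 8 members differed by 0.23 or less in size on this scale, which understates differences of low genes. With a pseudocount of 0.1, MIR17HG differed by -0.59 and HOTAIR by 0.73, and the ratio of the libraries was 1.69 for MIR17HG against 1.46 for NEAT1 and 1.39 for PVT1.

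GAS5 (ENSG00000234741, chromosome 1 from 173827697 to 173838020, minus strand, GRCh37) was the most abundant of the 10, with FPKM of 134 and 127 in libraries 1 and 2 (130.2 ± 5.00, SD, n = 2). Its RNA is known for binding the glucocorticoid receptor and for accumulating when growth stops. All 29 of its annotated transcripts had a value above 0 in both libraries, and the leading one, ENST00000450589, held 40.8 and 34.2% of the FPKM. GAS5 is a TOP RNA, one whose first base is a C followed by a run of pyrimidines, and the run is shown here because it falls at the annotated start. The sequence below runs from 50 bases before the canonical TSS to the 50th transcribed base, chr1:173837078-173837177, minus strand, read from GRCh37, with the tract in capitals.
GAS5: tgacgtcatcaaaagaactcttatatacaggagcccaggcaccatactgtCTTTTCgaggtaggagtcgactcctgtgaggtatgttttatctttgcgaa
The tract starts at the first transcribed base and holds 6 pyrimidines. Of 9 members, HOTAIR not being among them, GAS5 was the only 1 with a tract of at least 5 bases starting there, against 2.54% of 14154 long noncoding and 4.65% of 19545 protein-coding promoters. With the start moved by up to 20 bases either way, 7 of the 9 had such a tract, but so did 49.3% of long noncoding promoters.

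At the GAS5 promoter, H3K4me3 peaks of 4999 and 1992 bp covered the canonical TSS in replicates 1 and 2. An H3K27ac peak of 6915 bp covered it in replicate 1, whereas in replicate 2 the TSS lay in a gap of 276 bp between peaks. H3K27ac thus flanked the start in 1 list and ran across it in the other. ZBTB37, a zinc finger gene, starts 87 bp from a GAS5 TSS on the other strand and reached FPKM of 1.49 and 1.67, so the genes on either side of this shared start region differed widely in level. Strandedness of the libraries is not given in the sources used here, and reads from overlapping opposite transcripts cannot be told apart.

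SNHG1 (ENSG00000255717, chromosome 11 from 62619450 to 62623425, minus strand) was second, with FPKM of 30.9 and 34.5 (32.7 ± 2.60). It has a similarly compact divergent start: SLC3A2, the heavy chain of amino acid transporters at the cell surface, starts 51 bp away on the other strand and had FPKM of 40.3 and 43.5. Here the partners were close in level. H3K4me3 peaks near the canonical TSS were 4662 bp wide in replicate 1, which covered the TSS, and up to 1317 bp in replicate 2, where the TSS lay in a gap of 206 bp. H3K27ac repeated this, with 3992 bp across the TSS and then a gap of 253 bp. Both lists of replicate 2 therefore placed the marks on either side of the start. The RNA was spread over many forms, since 21 of 25 transcripts had a value in both libraries and the leading one, ENST00000535076, held 17.9 and 30.0%.

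SNHG1 holds 7 annotated snoRNA genes, of a class that mostly guides chemical modification of RNA. SNORD22 (ENSG00000278527) was listed at FPKM of 5.58 and 7.20, SNORD26 at 4.70 and 5.82 and SNORD30 at 2.15 and 3.95. These 3 stood above an FPKM of 1 in both libraries. SNORD25, SNORD27, SNORD28 and a further SNORD22 entry (ENSG00000277194) lay between 0.038 and 0.136. Such RNAs are shorter than most sequenced fragments and overlap host transcripts, so their values are uncertain, and a level in this library type need not follow that of the mature snoRNA.

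DANCR (ENSG00000226950, chromosome 4 from 53578492 to 53589790, plus strand), a host RNA known for holding cells undifferentiated, had FPKM of 13.7 and 12.6 (13.2 ± 0.773). It was among the most even members, with the transcript ENST00000411630 at 74.3 and 71.3% of the FPKM in the libraries. Its snoRNA SNORA26 was listed at 1.19 and 2.23. H3K4me3 peaks of 2180 and 1178 bp covered the canonical TSS. An H3K27ac peak of 1794 bp covered it in replicate 1, and 1 of 1120 bp began 26 bp downstream in replicate 2. DANCR was also the member, after HOTAIR, with H3K27me3 peaks of both replicates nearest to its canonical TSS, at 1865 and 3028 bp upstream, outside the 1 kb window. The nearest protein-coding gene, ERVMER34-1, starts 39261 bp away and had FPKM of 4.80 and 4.69.

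Among 19 other snoRNA host RNAs, 17 reached an FPKM of 1 in both libraries, 18 had both active marks and 0 had H3K27me3. Their median FPKM was 13.3. SNHG29 was the highest at 293 and 256, followed by SNHG32 at 95.8 and 94.8 and ZFAS1 at 63.1 and 59.1. SNHG14, at 7.37 and 9.83, was the 1 host above an FPKM of 1 without H3K4me3 peaks of both replicates. GAS5 thus lay between SNHG29 and SNHG32, and DANCR near the median of the class.

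MALAT1 (ENSG00000251562, chromosome 11 from 65265111 to 65275544, plus strand) had FPKM of 21.4 and 24.3 (22.9 ± 2.06), overlapping the range of TUG1. Its full-length unspliced transcript of 8708 bases, ENST00000534336, held 76.9 and 68.1% of the FPKM and 96.1 and 93.0% of the aligned bases. Reads of shorter forms inside this transcript could be assigned to it, and coverage along the gene was not examined. H3K27ac peaks lay over 100% of the gene in replicate 1 and 94.6% in replicate 2. The widest H3K27ac peak near the canonical TSS was 24144 bp in replicate 1 and 6389 bp in replicate 2, wider than at 99.6 and 99.3% of promoters with a peak. H3K4me3 did not agree between replicates, at 8972 bp and 87.9% of the gene in replicate 1, but 821 bp and 7.87% in replicate 2. Its breadth in replicate 1 therefore rests on 1 peak list.

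NEAT1 (ENSG00000245532, chromosome 11 from 65190245 to 65213011, plus strand), the neighbour upstream of MALAT1 in the same orientation, was lower and less even, with FPKM of 4.18 and 6.12 (5.15 ± 1.37). The long form, ENST00000501122 of 22743 bases, is the one that builds paraspeckles. It was listed at 3.33 and 3.66. A transcript of 483 bases, ENST00000616315, went from 0.269 to 1.50 and accounted for most of the difference between the libraries. Bases assigned to the long form made up 98.6 and 97.6% of all NEAT1 bases, whereas by FPKM, which divides by length, its share was 79.6 and 59.9%. Only 5 NEAT1 transcripts were annotated, and reads of any other form lying inside the long one could be assigned to it. These shares therefore do not give the amount of the paraspeckle form. H3K27ac peaks over the TSS were 14235 and 8824 bp wide, above 99.0 and 99.8% of promoters, and the widest of H3K4me3 within 1 kb were 8502 and 2061 bp, above 99.8 and 84.8%. In replicate 2 of H3K4me3 the TSS lay in a gap of 261 bp between peaks, and the 2061 bp peak began 75 bp downstream. NEAT1 and MALAT1 were the only members above 99% of promoters for H3K27ac in both replicates.

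NEAT1 was also the only one of the 9 members without HOTAIR whose promoter window held a TATA box. The 300 bases from 250 before to 50 after the start of the long form are shown for this, chr11:65190019-65190318, plus strand, GRCh37, with motif matches in capitals.
NEAT1: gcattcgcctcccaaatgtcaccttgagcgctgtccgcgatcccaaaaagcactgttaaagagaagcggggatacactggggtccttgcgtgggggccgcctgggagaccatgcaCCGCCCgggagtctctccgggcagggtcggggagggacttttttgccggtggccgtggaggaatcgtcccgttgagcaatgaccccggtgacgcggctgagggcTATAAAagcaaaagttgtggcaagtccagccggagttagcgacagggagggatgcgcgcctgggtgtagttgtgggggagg
The TATAAA match starts 31 bases before the TSS, and a GC box lies further upstream. TATAAA on either strand occurred in 16.1% of long noncoding and 9.59% of protein-coding promoters of this length.

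Genes for proteins of the nuclear bodies in which these RNAs reside were well expressed. All 12 paraspeckle genes reached an FPKM of 1 with both active marks and without H3K27me3, among them HNRNPK at 249 and 247 and SFPQ at 177 and 184. All 9 nuclear speckle genes did too, led by SRRM2 at 108 and 109, SRSF1 at 85.1 and 81.6 and SRSF2 at 76.8 and 81.9. The protein-coding gene nearest to NEAT1 was FRMD8, 36153 bp away, with FPKM of 9.01 and 8.46.

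**Figure D2:**
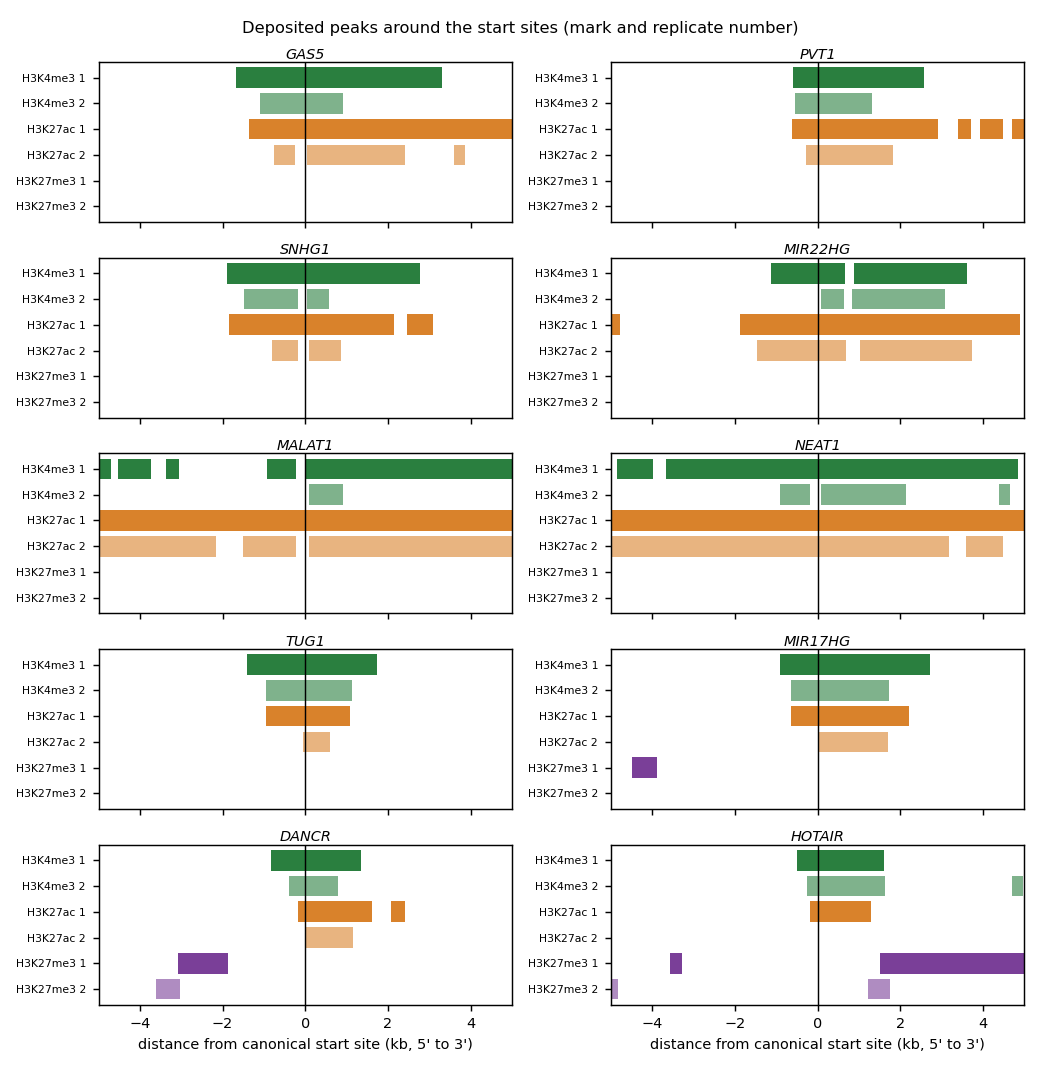
Deposited peaks of each mark and replicate within 5 kb of the canonical TSS (black line), oriented 5′ to 3′, with genes ordered by FPKM down the left column and then the right. Dark bars are replicate 1 and pale bars replicate 2. H3K4me3 and H3K27ac of both replicates cover the start or lie within 1 kb of it in 9 genes. In HOTAIR the H3K27ac bar is missing from replicate 2, and H3K27me3 begins 1502 and 1221 bp inside the gene in replicates 1 and 2.

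TUG1 (ENSG00000253352, chromosome 22 from 31365231 to 31375381, plus strand) was listed at FPKM of 22.6 and 21.4 (22.0 ± 0.880). GENCODE version 44 types it as protein-coding because of a reading frame near its start, and it was kept with the long noncoding genes here. Its leading transcript, ENST00000519077 of 5673 bases, held 47.3 and 47.6% of the FPKM, whereas ENST00000540687 held 22.7 and 15.3% and ENST00000521091 5.51 and 9.26%. In contrast to the wide peaks of MALAT1, its promoter carried H3K27ac peaks of 2034 and 651 bp, near and below the median promoter. MORC2, a chromatin gene, starts 471 bp away on the other strand and had FPKM of 10.4 and 10.6, without overlap with TUG1. The promoter window, chr22:31365001-31365300 on the plus strand of GRCh37, is shown because it held 3 kinds of motif, as did the GAS5 window of this length.
TUG1: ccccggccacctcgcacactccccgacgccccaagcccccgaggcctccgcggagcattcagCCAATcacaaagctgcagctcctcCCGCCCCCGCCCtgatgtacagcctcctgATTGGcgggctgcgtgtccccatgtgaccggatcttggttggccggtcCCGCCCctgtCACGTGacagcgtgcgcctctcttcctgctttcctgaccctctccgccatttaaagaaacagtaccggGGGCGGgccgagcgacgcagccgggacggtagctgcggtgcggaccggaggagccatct
The capitals mark 2 CCAAT boxes, 4 GC boxes of which a pair abut, and 1 E-box.

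PVT1 (ENSG00000249859, chromosome 8 from 128806772 to 129199347, plus strand) is 392576 bp long and lies next to MYC. Its FPKM was 10.5 in library 1 and 7.56 in library 2 (9.04 ± 2.09). This difference came from 5 annotated transcripts under 200 bases, none of which is kept in GENCODE version 44. They summed to 3.47 in library 1 and 0.213 in library 2. Without them PVT1 stood at 7.04 and 7.35, so the direction of the difference turned. ENST00000612011, of 169 bases, led in library 1 and ENST00000523190, of 443 bases, in library 2. Only over its transcripts of at least 200 bases were the PVT1 libraries alike. MYC, a transcription factor that drives growth and whose TSS lies 59092 bp from PVT1, was listed at 5.75 and 50.4, so the libraries differed far more for MYC than for PVT1.

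H3K27ac peaks were spread over the whole PVT1 gene. There were 48 in replicate 1 and 37 in replicate 2, and all 37 overlapped a peak of replicate 1. They covered 43.6 and 19.3% of the gene, and 19.2% in both. Among 4798 genes of at least 100 kb, PVT1 ranked 6 and 4 by number of H3K27ac peaks, and first by number among 1162 long noncoding genes of that length in each replicate. Per 100 kb the rates were 12.2 and 9.42 peaks, against medians of 1.64 and 0.761, which placed PVT1 above 98.7 and 99.0% of long genes and at ranks 4 and 10 among the long noncoding ones. H3K4me3 had 15 and 5 peaks, of which only the one at the canonical TSS was shared. The rate was 3.82 per 100 kb in replicate 1, above 97.6% of long genes (median 0.713), and 1.27 in replicate 2, above 53.4%, so H3K4me3 was frequent for a gene of this length in 1 list only. Of the 37 H3K27ac intervals common to both replicates, 36 lay more than 3 kb from that TSS. Within each replicate, 11 of 48 and 1 of 37 H3K27ac peaks met an H3K4me3 peak. H3K27me3 peaks were absent from the gene in both lists.

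**Figure D3:**
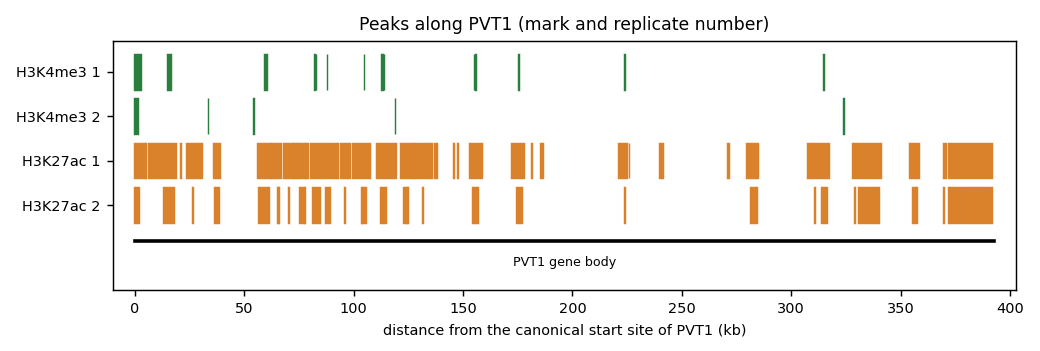
Peaks of H3K4me3 and H3K27ac in each replicate along the PVT1 gene, as distance from its canonical TSS in kb (bars are widened by their outline so that narrow peaks can be seen). The 48 and 37 H3K27ac peaks run to the 3′ end of the gene, and only the H3K4me3 peak at the TSS is shared by both replicates.

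HOTAIR (ENSG00000228630, chromosome 12 from 54356092 to 54368740, minus strand), known for binding chromatin-modifying complexes, was listed at an FPKM of 0 in library 1 and 0.066 in library 2. It was the least expressed member. Yet its canonical TSS lay under H3K4me3 peaks of 2101 and 1904 bp, of a width common among promoters (above 43.4 and 79.7% of them). H3K27ac covered the TSS in replicate 1 with a peak of 1471 bp and was absent within 1 kb in replicate 2, where the nearest peak lay 11404 bp upstream. The promoter thus had the promoter mark in both replicates and the active mark in 1 only. In the paper, a much smaller fraction of H3K27ac reads lay in peaks in replicate 2 than in replicate 1. Whether this bears on the absent peak was not tested.

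H3K27me3 did not reach that start. Its nearest edge lay 1502 bp downstream in replicate 1 and 1221 bp in replicate 2. The other 5 of 6 annotated HOTAIR TSS positions, 1942 to 8549 bp into the gene, each had H3K27me3 of both replicates within 1 kb. At 1 of them, 1942 bp in, H3K4me3 of both replicates lay within 1 kb too. These were the peaks over the canonical TSS, which ended 1601 and 1637 bp into the gene and did not cover this later start. Peaks of H3K27me3 covered 76.1 and 27.5% of the gene, and 16.4% under both, so the stretches they marked coincided only in part. Calling HOTAIR marked by H3K27me3 therefore depends on which start is meant.

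Seen over the HOXC cluster, the start of HOTAIR lay at the edge of the H3K27me3 region. From HOTAIR toward HOXC13, over 39628 bp, H3K27me3 peaks covered 89.7 and 62.5% in replicates 1 and 2, and H3K27ac 3.25 and 0%. From HOTAIR toward HOXC4, over 81074 bp, H3K27me3 covered 1.22 and 0.364% and H3K27ac 15.8 and 7.56%. The order of the marks was thus reversed in both replicates on crossing the start. Gene levels differed between the sides too. HOXC12 was listed at 0 in both libraries and HOXC13 at 0.706 and 0.423, whereas HOXC10 had FPKM of 7.79 and 6.33, HOXC9 3.62 and 2.84, HOXC6 3.30 and 3.60 and HOXC4 1.88 and 1.90. These 4 were the HOXC coding genes that reached an FPKM of 1, of 9. HOXC8 and HOXC5, at 0.489 and 0.262 and at 0.287 and 0.193, had none of the marks in both replicates, and the antisense HOXC-AS3 was listed at 0 although it had both active marks. HOXC11, which had 0.407 and 0.258, runs across the canonical start of HOTAIR on the other strand. It starts 112 bp from the HOTAIR TSS that lies 1942 bp in, the one with both H3K4me3 and H3K27me3 within 1 kb. The windows of the genes overlap there, so these peaks cannot be assigned to HOTAIR rather than HOXC11.

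**Figure D4:**
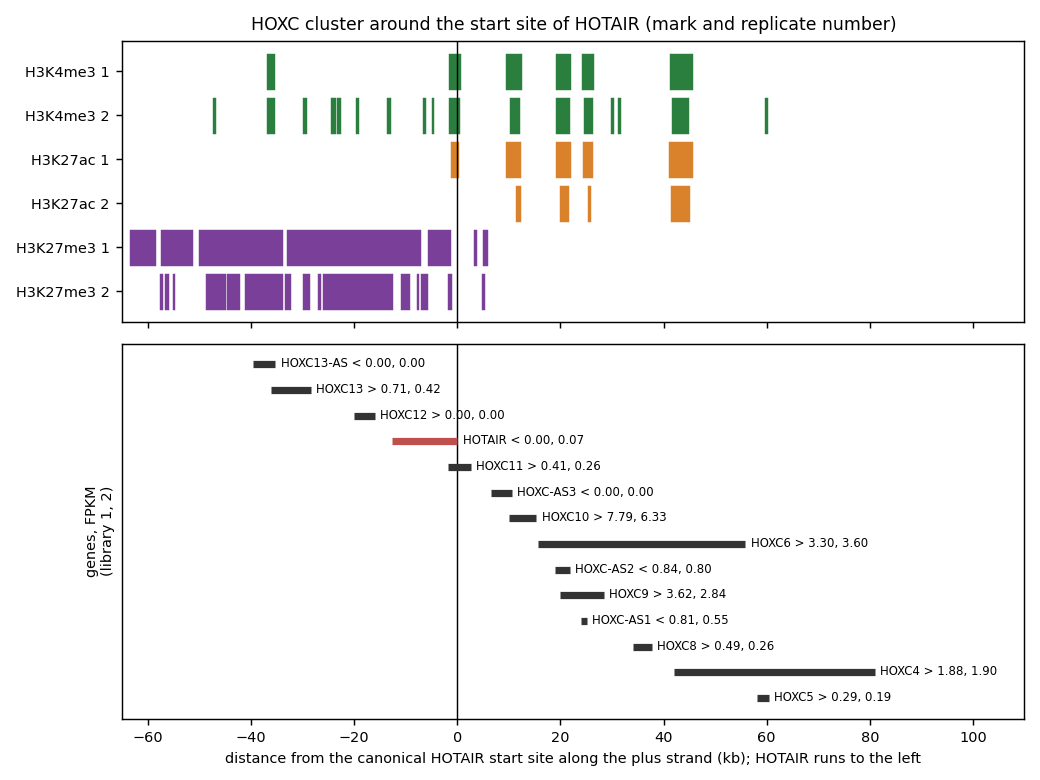
Peaks of each mark and replicate (top) and genes with their FPKM in libraries 1 and 2 (bottom) across the HOXC cluster, as distance in kb from the canonical HOTAIR TSS along the plus strand. HOTAIR is drawn in red and runs to the left, arrowheads give strands, and H3K27me3 lies almost wholly to the left of the line and H3K27ac of both replicates to the right.

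Long noncoding RNAs of the 4 HOX clusters were not silent as a class. Of 15, 7 reached an FPKM of 1, 11 had H3K4me3 and H3K27ac together and 2 had H3K27me3. The highest were HOXA10-AS at 25.4 and 25.0, HOXA-AS2 at 14.0 and 14.0 and HOTAIRM1 at 8.14 and 7.11. Among all long noncoding genes, 318 shared the HOTAIR pattern of H3K4me3 and H3K27me3 within 1 kb of the same TSS. None of these 318 reached an FPKM of 1 in both libraries, and 211 were listed at 0. Of 2333 with the marks of the other 9 members, 18.8% reached it, and of 9643 with no peak of both replicates, 1.65% did. The 8 members above an FPKM of 1 were among the 438 of those 2333 that reached it.

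MIR22HG (ENSG00000186594, chromosome 17 from 1614741 to 1620468, minus strand) had FPKM of 4.74 and 5.73 (5.24 ± 0.696), within the range of NEAT1. The sum hid a change of transcripts: ENST00000574306 went from 2.92 to 2.05 and ENST00000334146 from 0.097 to 1.78. Peaks covered much of this short gene, H3K4me3 59.1 and 49.0% of it and H3K27ac 85.8 and 59.3%. WDR81, on the other strand 182 bp from a MIR22HG TSS, had 12.4 and 12.3. The hairpin gene MIR22 was listed at 2.31 and 3.85, the only miRNA gene within the members above an FPKM of 1 in both libraries.

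MIR17HG (ENSG00000215417, chromosome 13 from 91999940 to 92049846, plus strand) encodes the polycistronic cluster that promotes proliferation. Its FPKM was 0.470 and 0.279 (0.374 ± 0.135), under 1 in both libraries. Its promoter carried H3K4me3 of 3627 and 2371 bp, wider than at 87.8 and 91.5% of promoters. H3K27ac peaks there were 2837 and 1697 bp, wider than at 73.3 and 81.9%. It was the only member with both active marks and an FPKM below 1. Among the 2333 long noncoding genes with these marks and no H3K27me3, however, only 18.8% reached an FPKM of 1 in both libraries. Not reaching it was thus the common case. Of its 6 hairpin genes, 5 were listed at 0 in both libraries and MIR92A1 at 0 and 0.073. Mature miRNAs are too short for these libraries and were not measured, so the level of the host does not give theirs. The nearest protein-coding gene, GPC5, starts 50935 bp away and had FPKM of 0.10 and 0.18.

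**Figure D5:**
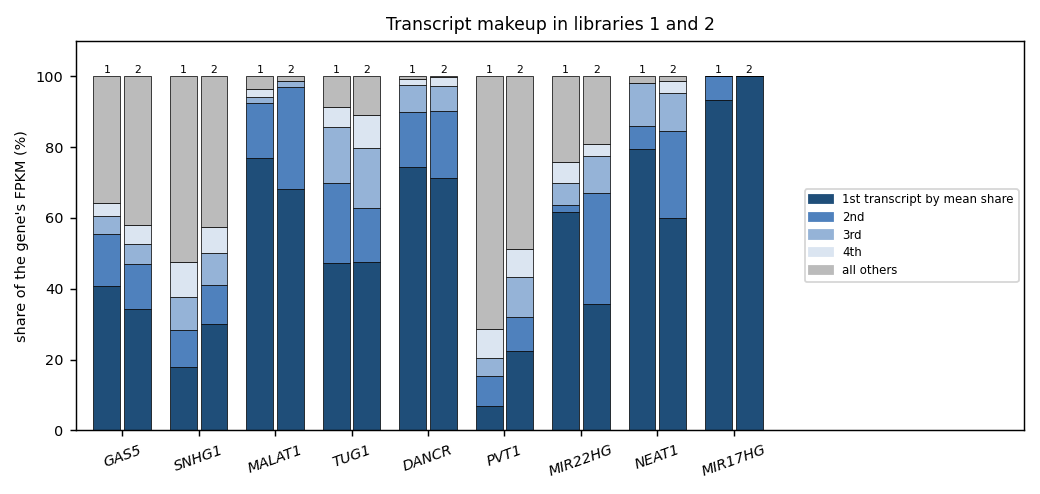
Share of each gene's FPKM held by its 4 leading transcripts (by mean share, dark to pale) and by all others (grey), in libraries 1 and 2. The leading shares of TUG1 and DANCR look alike in both libraries, whereas the leading share of MIR22HG was 61.6 and 35.8% and that of NEAT1 79.6 and 59.9%. HOTAIR is left out because it was listed at 0 in library 1.

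The products of both hosts are shown because their seeds, bases 2 to 8 in capitals, decide which targets they pair with. The sequences are RefSeq mature forms (GRCh38.p14), and all 7 miRNA genes of the hosts were matched. Those below come from MIR17HG except the last, from MIR22HG.
hsa-miR-17-5p: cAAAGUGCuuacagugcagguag
hsa-miR-20a-5p: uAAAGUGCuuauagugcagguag
hsa-miR-18a-5p: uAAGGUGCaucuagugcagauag
hsa-miR-19a-3p: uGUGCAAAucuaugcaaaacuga
hsa-miR-19b-3p: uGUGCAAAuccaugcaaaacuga
hsa-miR-92a-3p: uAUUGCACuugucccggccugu
hsa-miR-22-3p: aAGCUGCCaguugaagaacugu
The first pair share the seed AAAGUGC, held by 8 of 2370 human mature miRNA names in the table, and the miR-19 pair share GUGCAAA, held by 2. The miR-18a seed AAGGUGC was held by 3 names, that of miR-92a, AUUGCAC, by 6, and that of miR-22-3p, AGCUGCC, by it alone. One locus thus encodes 4 seeds among these arms and MIR22HG a seed of its own.

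Among 16 further miRNA host RNAs, 7 reached an FPKM of 1 in both libraries, 9 had both active marks at the same TSS and 5 had H3K27me3. MIR503HG was the highest at 21.3 and 18.6, then MIR4435-2HG at 17.2 and 15.2 and MIR205HG at 4.65 and 5.48. MIR503HG, MIR205HG and MIR222HG (2.89 and 3.90) had no H3K4me3 of both replicates at an annotated TSS. MIR22HG thus lay within the range of the expressed hosts, and MIR17HG below their threshold. Of 20 other much-studied long noncoding RNAs, 8 reached an FPKM of 1, led by NORAD at 69.8 and 74.0, UCA1 at 17.7 and 16.4 and LINC00511 at 15.4 and 18.7, and UCA1 also lacked H3K4me3 of both replicates.

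The counts that follow are over the promoter windows of 9 members and say nothing of HOTAIR. The GC box GGGCGG occurred in these 9, against 21.4% of long noncoding and 61.8% of protein-coding promoters of the same 300 bases. CCAAT occurred in 4 (DANCR, TUG1, MIR22HG and MIR17HG), against 34.7 and 36.0%, and the E-box CACGTG in GAS5 and TUG1, against 5.45 and 8.82%. The CRE TGACGTCA occurred in GAS5 and PVT1, against 0.707 and 2.68%. The CpG ratio (observed over that given by the base composition) was lowest in MIR22HG at 0.316. These 9 lay above the median of long noncoding promoters, 0.280, and 8 above that of protein-coding promoters, 0.778. The MIR22HG window, its motifs included, is that of ENST00000577164, which held 0.542 and 4.11% of the FPKM in libraries 1 and 2. The other annotated MIR22HG starts lie 833 to 968 bp further downstream, outside the window. Both strands were searched. The DANCR window, chr4:53578418-53578717 on the plus strand of GRCh37, is shown for its alternation of CCAAT and GC boxes.
DANCR: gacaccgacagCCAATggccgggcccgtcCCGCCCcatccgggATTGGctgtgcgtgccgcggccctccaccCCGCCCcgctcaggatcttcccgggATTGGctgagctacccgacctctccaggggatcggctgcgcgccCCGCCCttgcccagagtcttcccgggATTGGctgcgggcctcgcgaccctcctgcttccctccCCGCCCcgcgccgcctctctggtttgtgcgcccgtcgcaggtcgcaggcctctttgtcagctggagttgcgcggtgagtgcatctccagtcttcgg
It holds 4 of each, and CCAAT on the given strand or its reverse complement ATTGG starts 239, 207, 153 and 83 bases before the TSS. A match of letters is a description and not evidence that a factor was bound.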

How the data were processed

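RNA-seq and ChIP-seq of HK2 cells were used as deposited. The authors mapped rRNA-depleted reads with HISAT2 and deposited FPKM, TPM and per-base coverage for each annotated transcript from StringTie 1.3.3, and their file headers name GENCODE version 27 (GRCh38), although the methods name hg19 for mapping. The ChIP-seq peaks were called by the authors with MACS2, separately for each replicate, from uniquely mapped Bowtie2 alignments to hg19. The lists they deposited hold positions without a score, so the depth behind a peak is unknown. In the labels 1 list of each mark has no number and was taken as replicate 1.

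FPKM was summed per gene. Fragment counts were not used, and aligned bases are coverage times transcript length. Genes were joined by Ensembl identifier to GENCODE version 44 mapped to GRCh37, for TSS positions and types (55822 of 58243 matched). A second identifier named MALAT1 (95 bases, FPKM 0.153 and 0.169) was left out. Hosted genes were located in the RNA-seq files' own coordinates. Peaks were overlapped with windows by at least 1 bp, a routine tested on simulated data. Promoter windows came from the GRCh37 genome at Ensembl canonical TSS positions. The promoter window of HOTAIR, which is therefore in no count over promoter windows, and some genes that the naming rule below selects are not reported here. Computation used Python 3.11.15, numpy 2.4.6, pandas 2.3.3 and matplotlib 3.10.9. The RNA level of each member is given for both libraries, with mean and SD where both lie above 0, that of other genes for both libraries, and no test was made.

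The members and lists were chosen with earlier results of these data known. Other named genes are the nearest protein-coding gene of each member, a divergent gene within 1 kb, the miRNA and snoRNA genes inside members, and from each list the 3 of highest mean FPKM and any at FPKM 1 or more without H3K4me3. The remaining HOXC genes and some cell type markers were named after their values were seen. Alternatives changed the TSS window and set, the use of replicates, peak width, overlap, unit, thresholds, pseudocount and transcripts counted, with those on transcript sets, short transcripts and the MALAT1 identifiers added after the data were seen.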

Additional observations from a re-analysis of the deposited data

How the results depend on the processing

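The count of 9 members with H3K4me3 and H3K27ac of both replicates was 9 with TSS windows of 0.5 and 2 kb, with peaks of at least 500 bp, with at least 100 bp of overlap, with gene 5′ ends and with the transcripts of the RNA-seq files. It was 9 to 10 with single replicates, because HOTAIR joined with replicate 1 alone or with either replicate. The H3K27me3 count of 1 was 0 when only the 5′ end of the gene was used, and 1 under every other alternative, single replicates included. The count of 8 members at an FPKM of 1 was 8 with single libraries, with TPM, with a threshold of 0.5 and with leading transcripts, and 6 at an FPKM of 5. With leading transcripts, PVT1 counted only through a different one in each library. ENST00000612011 had 1.37 and 0.008 in libraries 1 and 2 and ENST00000523190 0.731 and 1.69, so neither reached 1 in both. The leading transcript was unchanged by coverage in place of FPKM in 10 of 10 members, and differed in library 1 alone in PVT1, 1 of the 9 members above 0 there. Shares of a gene under peaks were larger with replicate 1 alone than with both replicates in 10 of 10 members for H3K27ac. No paired analysis was possible because all samples hold 1 condition and no groups were compared. Depth per peak is unknown, and short RNAs are poorly measured by these libraries.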
